A study of Zea mays with 12 samples.

Results

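In B73, the maize inbred line taken as wild type, 179 of 21472 genes measured in leaves rose by 2 or more on the log2 scale after 1 h of blue light, while their means changed by less than 0.5 in the mutant zmcryq. The 179 were selected on these same measurements. Genes reaching 1 FPKM in at least 3 of 12 libraries were kept, which left 21472 of 44303 listed. Each library was divided by its median ratio to the gene geometric means over the 19555 kept genes above 0 in all 12 libraries, and values were averaged per group as log2(FPKM + 1). Members changed by 2 or more in B73 (blue minus dark) and by less than 0.5 in either direction in zmcryq. FPKM are fragment counts corrected for transcript length and for the number of mapped fragments, and "scaled FPKM" below are these values after division by the library factor.

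Seedlings of 7 days, raised in long-day white light, spent 48 h in darkness and were then left dark or moved to blue light for 1 h. The 4 groups were B73 dark, B73 blue, zmcryq dark and zmcryq blue, with 3 libraries of leaf RNA each. The labels give zmcryq as a mutant but state neither its alleles, its genetic background nor the number of lines, and they do not say that the 3 libraries of a group are from different plants. The p-values thus rest on the spread among these 12 libraries, part or all of which can be technical.

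Cryptochromes, to which the mutant's name refers, are flavoprotein receptors that absorb blue light. In Arabidopsis, the excited receptor binds and restrains the COP1/SPA ubiquitin ligase, so that transcription factors such as HY5 accumulate, and it also acts on PIF factors. Plants perceive blue light through phototropins and phytochromes as well, so a leaf without cryptochromes is not blind to it. The gene IDs of the table (Zm00001eb and 6 digits) were paired with no gene name in the files or in the reference table, so no function, pathway or sequence is given for any member, and the cryptochrome genes and leaf markers were not checked here.

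Library totals ran from 588717 to 814802 FPKM and library factors from 0.507 (zmcryq dark, replicate 1) up to 1.64 (zmcryq blue, replicate 3). The commonest ratio of low values between libraries put the relative mapped totals between 0.812 in zmcryq blue replicate 3 and 1.62 in B73 blue replicate 2, with B73 dark replicate 1 at 1. Absolute depth is not known from these values. Without the factors, the median of all 21472 genes shifted by 0.56 (log2) in zmcryq between dark and blue and by -0.38 between the genotypes in the dark. With them the same medians were 0.01 and 0.03, by construction.

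Blue light raised 630 genes by 2 or more on the log2 scale in B73, and these split into 3 sets by what zmcryq did. In 430 the zmcryq change was 0.5 or more, in 179 it lay inside the limits, and in 21 it was -0.5 or lower. The median B73 change was 2.77 for the 179 members, from 2.00 to 5.95, and 2.59 for the 430 that rose in zmcryq. The member nearest to the B73 threshold changed by 2.004 and the nearest gene outside it by 1.999. At the upper zmcryq limit the nearest genes changed by 0.497 inside and 0.501 outside, and at the lower limit by -0.498 and -0.504, so the borders cut through a continuous spread of genes. In whole leaves, more transcript per cell and more cells holding it cannot be told apart.

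**Figure D1:**
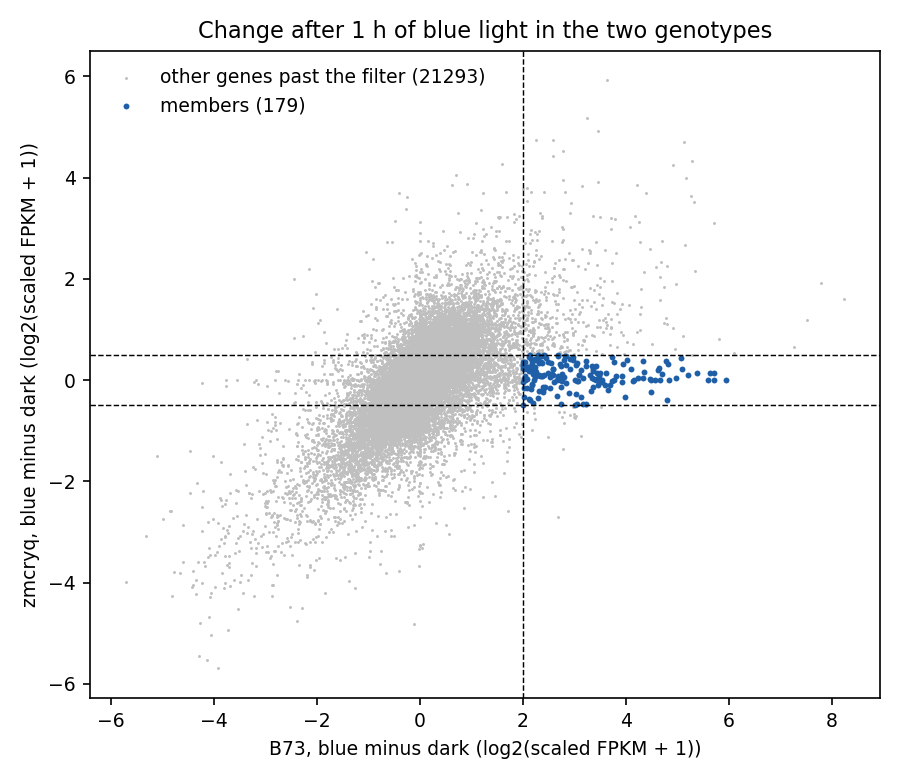
Change after 1 h of blue light in B73 (x axis) and zmcryq (y axis), each as blue minus dark of the group means of log2(scaled FPKM + 1). Each point is 1 of 21472 genes, blue points are the 179 members, and dashed lines mark the limits of 2 and 0.5. Members extend to a B73 change of 5.95. Among genes raised by 2 or more in B73, 430 grey points lie at or beyond the upper zmcryq limit and 21 at or beyond the lower.

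In B73 blue the members' mean levels ran from 3.07 to 397 scaled FPKM, with a median of 18.9. Of the 179, 131 reached a mean of 10 scaled FPKM and 18 reached 100. In B73 dark, 89 members had a mean below 1 scaled FPKM and 25 had 10 or more. For the 162 members above 0 in B73 dark, the median ratio of blue to dark means was 13.8. The other 17 were listed at 0 in all 3 B73 dark libraries, so no ratio is given for them.

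The largest B73 change belonged to Zm00001eb300560. It was at 0.234, 0.201 and 0.383 scaled FPKM in the B73 dark libraries and at 69.2, 76.8 and 88.4 in the B73 blue libraries. All 6 zmcryq libraries were listed at 0. The 3 B73 blue libraries stood far above the other 9, and the B73 change was 5.95 ± 0.11 (SE).

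Zm00001eb406810 had the next largest change, 5.72 ± 0.11 (SE). It was at 45.1, 51.6 and 59.5 scaled FPKM in B73 blue and was listed at 0 in the 9 other libraries. The gene was thus detected in no library but those of blue-treated B73.

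The member with the highest mean in B73 blue, Zm00001eb204300, was picked after its values were seen. It was at 71.8, 83 and 67.7 scaled FPKM in B73 dark and at 451, 322 and 417 in B73 blue. In zmcryq it was at 31.2, 38.1 and 29.6 in the dark and at 26.2, 30.1 and 27.2 in blue. Its 4 groups did not behave as on and off: B73 dark already stood above both zmcryq groups, and the zmcryq libraries overlapped between dark and blue.

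In 175 of the 179 members (97.8%), the lowest B73 blue library was above the highest of the 9 others, against 15.1% of all genes past the filter. In the 430 genes that also rose in zmcryq the count was 348 (80.9%). The rule used these contrasts, so the shares are a description. The 4 members with overlap were named for that reason, after their values were seen. Zm00001eb254240 was listed at 0 in B73 blue replicate 1 and at 18 and 14.7 scaled FPKM in replicates 2 and 3, with 5.86 in zmcryq dark replicate 2 and 4.18 in zmcryq blue replicate 1. It was the 1 member whose B73 rise did not pass limma, a linear model with pooled variance, at a Benjamini-Hochberg adjusted p of 0.05; 178 of 179 passed, with 26.9% of all genes called higher.

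The other 3 overlapping members were already high in zmcryq. Zm00001eb408900 was at 9.28, 14.3 and 9.65 scaled FPKM in B73 blue and at 15.5, 12.7 and 15.2 in zmcryq dark. Zm00001eb009090 was at 51.1, 40.8 and 39.4 in zmcryq dark and at 54.1, 57.7 and 48.8 in B73 blue. The third, Zm00001eb222500, is described with the dark levels. In these genes zmcryq libraries in the dark reached the range of blue-treated B73.

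By library, the members' median difference from the B73 dark mean, which the rule used and which is given as a description, was 2.73, 2.84 and 2.87 (log2) in B73 blue replicates 1, 2 and 3. Single members varied more, as Zm00001eb254240 above. Without the library factors, replicate 2 gave 2.02 where replicates 1 and 3 gave 3.18 and 3.37. In zmcryq blue, the medians relative to B73 dark were -0.01, 0.00 and 0.00, and in zmcryq dark they were -0.11, -0.18 and -0.13. The median member was thus at the level of B73 dark in zmcryq blue and slightly below it in zmcryq dark.

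**Figure D2:**
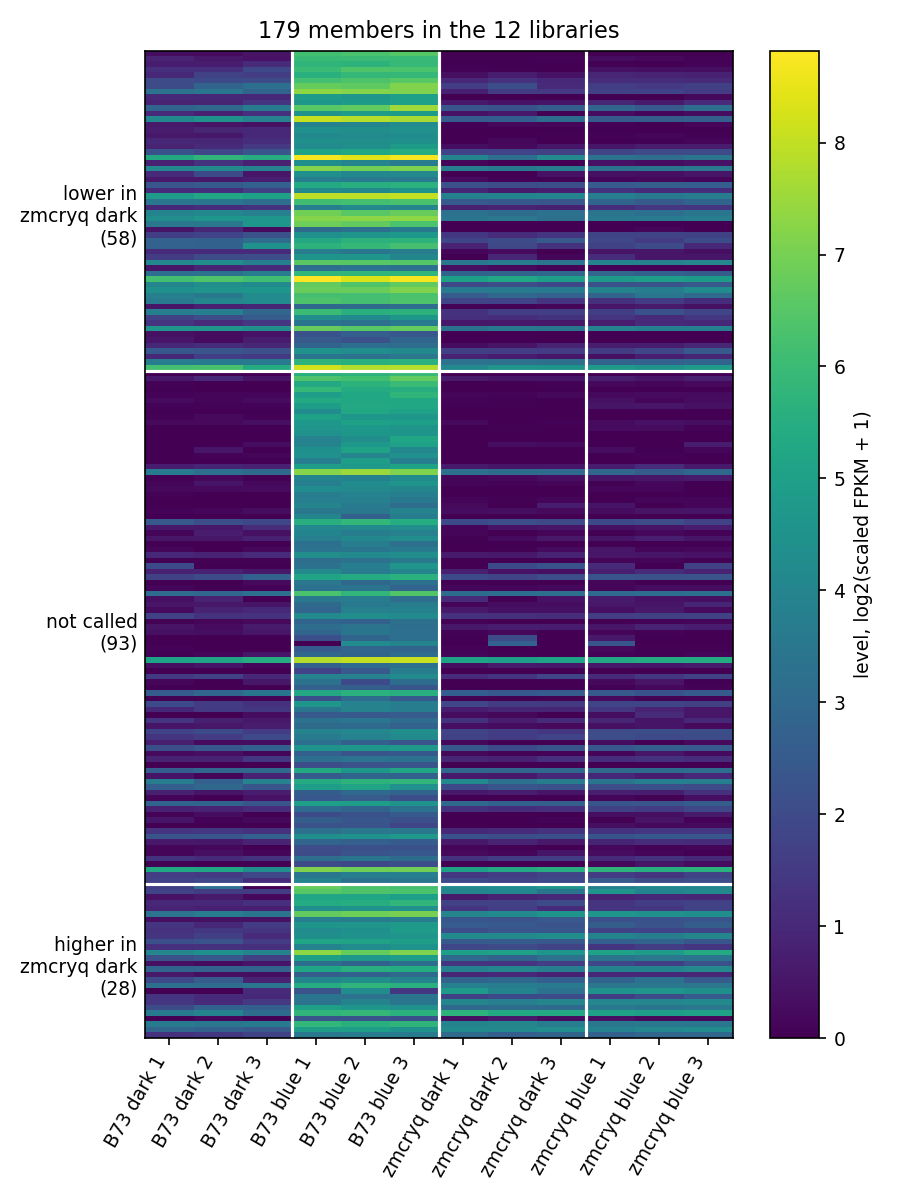
Level of each of the 179 members (rows) in the 12 libraries (columns) as log2(scaled FPKM + 1), with brighter colours for higher levels. Rows are grouped by the genotype difference in the dark (58 lower in zmcryq, 93 not called, 28 higher) and ordered by the B73 change within each group. The 3 B73 blue columns are the bright ones in nearly every row, and the lowest rows are also bright in zmcryq.

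Many members were close to silent outside blue-treated B73. In 65 of 179 (36.3%) each of the 9 other libraries was below 1 scaled FPKM, against 284 of all 21472 genes (1.32%). The filter and the rule set this contrast, and nothing is read from it. In the table as deposited, 64 members reached 1 FPKM in no library but the 3 of B73 blue, so they passed the filter through that group alone. The 9 other libraries would have met the filter for 96 members. In 94 members the zmcryq mean was below 1 scaled FPKM in both lights.

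Members listed at 0 in all 6 zmcryq libraries numbered 15 of 179 (8.38%), a state found in 0.801% of all genes past the filter. A gene at 0 in zmcryq has a zmcryq change of 0, so any such gene raised in B73 is a member by construction. In 9 of the 15, B73 dark was listed at 0 as well. Zm00001eb131640, described below, was the 1 of the 15 with a mean of 1 scaled FPKM or more in B73 dark, named here after its values were seen. Since the background of zmcryq is not stated, absence of transcript and absence of the gene from its genome cannot be told apart.

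A limit of 0.5 on log2(FPKM + 1) still admits a small response, and not only of low genes. In zmcryq, 21 members (11.7%) were called higher after blue light in limma and 6 (3.35%) lower, against 28.3% and 27.8% of all genes. The 21 rose by 0.28 to 0.49, a median of 17.1% of their B73 change, and 9 of them had a zmcryq dark mean below 1 scaled FPKM. Of the 179 changes in zmcryq, 118 were above 0, 46 below and 15 exactly 0. The rule used this contrast and nothing is read from these counts.

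For 24 members the zmcryq blue mean was at least 2 times the dark mean. Their zmcryq means lay between 0.00915 and 0.248 scaled FPKM in the dark and between 0.0616 and 0.616 in blue, while B73 blue reached 3.41 to 75.9. The zmcryq rise was a median of 1.5% of the B73 rise in FPKM, and 5 of the 24 were called. Another 16 members were listed at 0 in the 3 zmcryq dark libraries and averaged 0.00264 to 0.376 scaled FPKM in zmcryq blue. Membership also depended on the pseudocount: with 0.1 in place of 1, 115 of the 179 stayed members and 123 other genes joined.

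The response differed between the genotypes by its own term in the model (zmcryq minus B73) for 177 of 179 members, all toward a smaller zmcryq response, against 15% of all genes. Zm00001eb254240 and Zm00001eb222500 did not pass (limma adjusted p 0.25 and 0.2). In blue light itself, 176 members were called lower in zmcryq than in B73, against 28.1% of all genes, and 2 were called higher, against 26.9%. Those 2 were Zm00001eb222500 and Zm00001eb408900. These counts follow from the rule and are given as a description.

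What the rule did not set is where zmcryq stood relative to B73 before any light. In the dark, 58 members (32.4%) were called lower in zmcryq and 28 (15.6%) higher, and 93 were not called. The shares over all genes past the filter were 24.7% lower and 25.1% higher. These shares are not matched for level. Through B73 blue alone 64 members (35.8%) passed the filter, against 0.717% of all genes, so their dark libraries were all below 1 FPKM. With a B73 blue library left out, 115 members still passed, and 49 to 50 of these were lower and 27 higher. The median difference, zmcryq minus B73, was -0.15 over the members and 0.03 over all genes. The comparison shares its B73 dark and zmcryq dark libraries with the rule, so a B73 dark value that is low by error raises both the B73 change and the dark difference. Without the library factors 29 members were lower and 7 higher, 80.6% of the calls being lower in place of 67.4%. In that fit 76.2% of the calls over all genes were lower as well, and the members' shares were 16.2% lower and 3.91% higher, against 14.5% and 4.52% of all genes.

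The genes raised in both genotypes give the comparison. Of those 430, 191 (44.4%) were lower in zmcryq dark and 55 (12.8%) higher, with a median of -0.34. The share with a lower dark level in zmcryq was no higher in the members than in these genes, but the sets were not matched for level. The B73 dark mean was below 1 scaled FPKM in 49.7% of the members and in 23% of the 430. A zmcryq dark value that is low by error also raises the zmcryq change, and so favours entry into the 430.

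The dark calls depended on level. Of 94 members averaging below 1 scaled FPKM over the 6 dark libraries, 24 (25.5%) were lower and 3 (3.19%) higher, where all genes in that range had 18.7% and 14.7%. The 64 members that passed the filter through B73 blue alone, against 0.717% of all genes, were below 1 FPKM in every dark library. The filter thus left them little room for a call of higher, and nothing is read from the shares in this lowest range. Of 61 members between 1 and 10, 21 (34.4%) were lower and 17 (27.9%) higher, against 25.9% and 25%. Of 24 members at 10 or more, 13 (54.2%) were lower and 8 (33.3%) higher, against 24.8% and 27.6%. Among the more abundant members, then, 3 of 24 were at a dark level not called different between the genotypes.

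**Figure D3:**
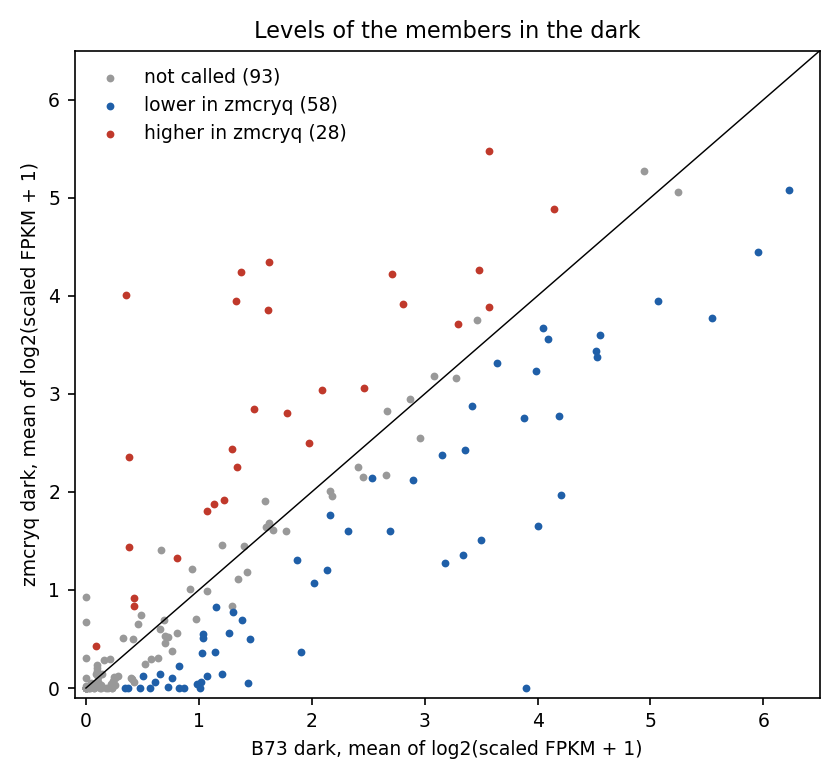
Dark level of the 179 members in B73 (x axis) and zmcryq (y axis) as group means of log2(scaled FPKM + 1), coloured by the limma call at an adjusted p of 0.05, with the line of equal levels. The 58 lower members spread below the line over the whole range, the 28 higher ones lie up to 3.65 above it, and most of the 93 uncalled ones crowd near the origin.

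In B73 blue the 58 members lower in zmcryq dark had a median of 47.9 scaled FPKM. It was 12.3 for the 93 uncalled and 24.6 for the 28 higher members. In B73 dark the medians of these sets were 2.92, 0.205 and 1.73. Calls were fewer among members at low dark levels, so the contrast in blue is not separate from the level needed for a call. The dark difference of the 58 ran from -3.90 to -0.33 with a median of -0.80. Those called lower by 1 or more were 19 of the 179 members (10.6%). The share was 8.69% of all genes past the filter and 21.6% of the 430 genes that rose in zmcryq. A gene with a B73 dark mean below 1 scaled FPKM cannot be lower by 1 on this scale. That applied to 49.7% of the members, 13.1% of all genes and 23% of the 430, so the shares cannot be compared directly. The B73 blue change of the 58 was of the same order as that of the other members. Its median was 2.80, against 2.77 for the uncalled and 2.74 for the higher ones. In zmcryq blue the 58 reached a median of 1.34 scaled FPKM, below their median of 2.92 in B73 dark.

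Zm00001eb131640 had the lowest dark difference. It was at 10.5, 10.6 and 24 scaled FPKM in B73 dark, at 115, 102 and 79 in B73 blue, and listed at 0 in all 6 zmcryq libraries. The groups of both genotypes did not overlap in either light. The dark difference was -3.90 ± 0.25 (SE; limma adjusted p 2.7e-07), and its size rests on the pseudocount, since 1 side is at 0. The SE and p-value also rest on a spread pooled over all groups, to which the zmcryq libraries, all at 0, add none. This pooling applies as well to the SEs of Zm00001eb300560 and Zm00001eb406810 above.

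Zm00001eb115990 followed. It was at 11.6, 16 and 18.2 scaled FPKM in B73 dark and at 81.5, 72.7 and 80.9 in B73 blue. In zmcryq it was at 2.6, 2.42 and 1.52 in the dark and at 1.36, 1.88 and 1.2 in blue. The zmcryq libraries lay below every B73 library in both lights. The dark difference was -2.35 ± 0.18 (SE; limma adjusted p 8.7e-07). For the abundant Zm00001eb204300 it was -1.15 ± 0.14 (SE; limma adjusted p 4.6e-05).

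Zm00001eb300560, the member with the largest B73 change, was lower by 0.34 ± 0.11 (SE) in zmcryq dark (limma adjusted p 0.023). That call was lost when replicate 3 of B73 dark (0.066) or replicate 2 of zmcryq dark (0.053) was left out, without scaling (0.54) and with a pseudocount of 5 (0.42). Its B73 dark libraries were all below 1 scaled FPKM.

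The 28 members higher in zmcryq dark differed by 0.32 to 3.65, with a median of 0.94. Those called higher by 1 or more were 13 of the 179 members (7.26%), against 7.47% of all genes past the filter. These shares cannot be compared directly. Through B73 blue alone 64 members (35.8%) passed the filter, against 0.717% of all genes. Their dark libraries were all below 1 FPKM, which leaves little room for a difference of 1 on this scale. The median level of the 28 was 1.73 scaled FPKM in B73 dark, 24.6 in B73 blue, 6.77 in zmcryq dark and 8.26 in zmcryq blue. These medians are intermediate in the mutant in both lights. The call put zmcryq dark above B73 dark, and the rule kept zmcryq blue near zmcryq dark, so this is a description. Some of the 28 lay close to B73 dark. Zm00001eb414570, picked after its values were seen, averaged 10.9 in B73 dark, 51.1 in B73 blue, 13.8 in zmcryq dark and 10.4 in zmcryq blue. In 6 of the 179 members the zmcryq dark mean was within 1 log2 unit of the B73 blue mean or above it, and in 2 it was at or above it. Those 2 were Zm00001eb222500 and Zm00001eb408900.

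Zm00001eb268690 held a level near that of blue-treated B73 in the mutant. It was at 1.58, 2.18 and 1.11 scaled FPKM in B73 dark and at 19.9, 21.4 and 23.3 in B73 blue. In zmcryq it was at 17.6, 16.7 and 19.7 in the dark and at 14.8, 12.5 and 15.2 in blue. All 6 zmcryq libraries lay above every B73 dark library and below every B73 blue library. The dark difference was 2.88 ± 0.14 (SE; limma adjusted p 2.3e-08).

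Zm00001eb222500 had the highest dark difference and, among the members named by rule, the largest SE of that difference. It was listed at 0, 0 and 1.11 scaled FPKM in B73 dark and at 3.81, 18.1 and 1.68 in B73 blue. In zmcryq it was at 26.5, 14.5 and 8.68 in the dark and at 21.6, 23.4 and 20 in blue. B73 blue replicate 2 overlapped the zmcryq dark libraries, and replicates 1 and 3 did not. The dark difference was 3.65 ± 0.66 (SE; limma adjusted p 0.0013). With a zmcryq change of 0.497 it was also the member nearest to the upper limit.

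**Figure D4:**
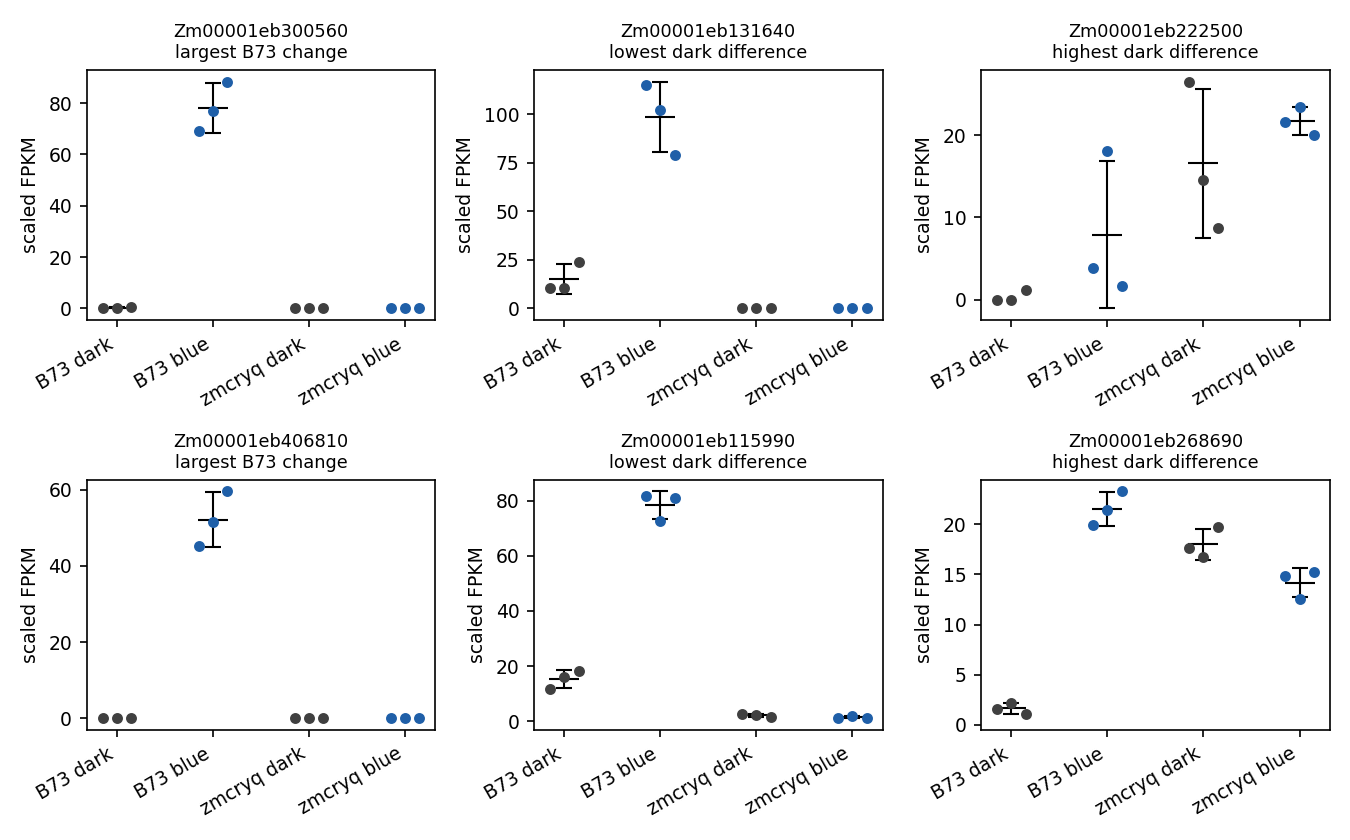
Scaled FPKM of 6 members in the 12 libraries (points; grey dark, blue after blue light), with the mean and SD of 3 libraries where none is listed at 0. Left, the members with the largest B73 change; middle, the lowest dark difference; right, the highest. Both left genes are near 0 outside B73 blue, both middle genes are already lower in zmcryq dark, and both right genes are high in zmcryq in either light.

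The spread within groups was of the usual size for these libraries. The median SD of a member on the log2 scale was 0.181 in B73 dark, 0.192 in B73 blue, 0.105 in zmcryq dark and 0.102 in zmcryq blue. Over all genes these were 0.201, 0.153, 0.125 and 0.116. Members had a somewhat wider spread in the group where they were high, and low values near 0 have little room to vary on this scale.

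Some members stood next to each other in the table, whose IDs increase from row to row. Of the 179, 20 (11.2%) formed 10 pairs of consecutive rows, for example Zm00001eb187910 and Zm00001eb187920, with B73 changes of 5.64 and 4.48 and means of 51.4 and 23 scaled FPKM in B73 blue. This pair was picked after its values were seen. The share of genes in such runs was 7.67% within the 430 genes that rose in zmcryq and 13% within all 630 raised in B73 and depends on the size of the set. Of 187 other genes past the filter in rows next to a member, 16 (8.56%) also rose by 2 or more in B73, against 2.93% of all genes. Shared fragments between overlapping genes or near-identical copies were not separable in these values, and their part in this was not tested.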

How the data were processed

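The authors deposited 1 table of values for 44303 gene IDs in 12 libraries of leaf RNA, with 4 columns of group means that equal the means of the library columns. The unit is stated nowhere. The deposited values were read as FPKM, because they carry decimals, their totals differ between libraries, and Cufflinks is among the tools in the submitters' processing notes, beside HISAT2 2.2.1.0 and Trimmomatic 0.36. Genome build, annotation and strand use: not given in the sources used here. Per the labels' protocols, RNA was isolated with RNAiso Plus and prepared with a TruSeq kit.

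From the deposited FPKM, the filter, factors and rule of the report were applied; 19555 genes above 0 in all libraries set the factors. On log2(scaled FPKM + 1) of the 12 libraries and 21472 genes, group means were compared with limma 3.58.1 in R 4.3.3 (trended, robust), with Benjamini-Hochberg adjustment over all genes, 2-sided, at 0.05. The fit was also run on simulated data in which each gene had the same spread in all groups, unlike the real groups. Changes were planted only in genes above a low mean level, so that run does not cover members near 0. Replicate numbers were not used to pair libraries.

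The members and the gene lists were chosen with earlier results of these data known. The lists are written as names and could not be applied. Genes named by rule are the 2 members with the largest B73 change and the 2 called lowest and 2 highest in the dark; the genes nearest to each limit are given by value, and other names are marked as picked later. Other settings were scaling, pseudocount, filter, limits of the rule, moderation, library weights, a replicate block and leaving out each library.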

Additional observations from a re-analysis of the deposited data

Results flagged for a closer look

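The blue response differed between B73 and zmcryq by the model's own term for the difference in 177 of the 179 members, each smaller in zmcryq. A smaller zmcryq response was called in 15% of all genes and in 71.4% of the 430 genes that rose in both genotypes. Among the members named by rule, the zmcryq response minus the B73 response, on the log2 scale, was -5.95 for Zm00001eb300560, -5.72 for Zm00001eb406810, -2.72 for Zm00001eb131640, -2.66 for Zm00001eb115990 and -3.45 for Zm00001eb268690 (limma adjusted p at most 0.00025). All of these genes were selected on the same changes, so the differences are no independent evidence.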

How the results depend on the processing

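The number of members moved with the limits of the rule: 378 for a B73 change of at least 1.5, 113 for 2.5, 111 for a zmcryq change within 0.25 and 333 within 1. A pseudocount of 5 gave 118 members, 74 of them among the 179. Without scaling there were 142, with 117 of the 179. Leaving out each library in turn gave 122 to 190 members, and the low end belonged to the B73 blue libraries (122 to 126, with 109 to 111 of the 179), where 64 members no longer reach 1 FPKM in 3 libraries. With each library left out in turn, 49 to 58 members were lower in zmcryq dark and 21 to 28 higher. The counts without a B73 blue library (49 to 50 and 27) are of the 115 members that still passed the filter, the others (50 to 58 and 21 to 28) of 179. Without scaling they were 29 and 7 of 179. Leaving out replicate 1 of zmcryq dark together with replicate 2 of B73 blue, whose factors are the lowest (an alternative chosen after seeing the data), gave 45 and 23 of 115. With the replicate block they were 60 and 28; libraries of the same number correlated at -0.11, 0.05 and 0.00 between the dark groups, at 0.26, -0.05 and 0.25 between the lights in B73 and at 0.00, -0.20 and -0.03 in zmcryq. Of the 6 dark libraries, 2 correlated best with their own number, and the numbers were not treated as pairs. The dark differences of Zm00001eb131640, Zm00001eb115990, Zm00001eb222500 and Zm00001eb268690 stayed past the threshold in 22 of 22 alternatives each, with sizes from -7.13 to -1.94, -2.76 to -1.49, 1.93 to 6.04 and 1.80 to 3.44.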
